A study of Mus musculus with 10 samples.

Results

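The kappa chain variable genes are the gene segments that encode most of the variable domain of the kappa light chain of antibodies. The genes described here were all rows of the gene table annotated as immunoglobulin variable genes whose symbol starts with Igkv, which gave 100 genes of the 54532 in the table. They were measured by RNA sequencing of whole spleens from 5 DUSP6 KO mice, which carry the Dusp6tm1Jmol allele and whose genotype label reads DUSP6 Knockdown, and 5 WT mice, which the study's methods name as C57BL/6J. DUSP6 is a phosphatase that inactivates ERK MAP kinases. By the methods, all experiments used mice aged 8 to 12 weeks. All 10 mice had KRN serum-induced arthritis (KSIA): each was given 100 µL of pooled serum from arthritic KRN x NOD F1 offspring on days 0 and 2, and its spleen was taken on day 9. The arthritis was thus transferred with serum antibodies and was induced in both groups, and no spleen of a mouse without serum was part of the comparison. The paper reports lower arthritis scores in DUSP6 KO mice than in WT mice. Effects of genotype and of arthritis severity therefore cannot be told apart here. The question was whether the level of these genes, or the share that each takes of all of them, differed between the genotypes. Mice are named below by genotype and animal number.

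A developing B cell makes its kappa chain gene by joining a single V segment to a J segment with the RAG recombinase, and the joined segment is then spliced to the constant segment Igkc. Segments that lie on the same strand as the J segments join by deletion of the DNA between them, and segments on the opposite strand join by inversion. Since a B cell as a rule keeps a single productive light chain, the level of a V gene in spleen RNA reflects both how many B cells and plasma cells carry it and how much antibody RNA each of them makes. In whole spleen RNA, fewer cells that use a gene and less RNA per cell cannot be told apart. Plasma cells, which secrete antibody, hold far more light chain RNA per cell than resting B cells.

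All 100 genes had the identifier and the coordinates of the mouse annotation GENCODE M21 (build GRCm38). They lie on chromosome 6, from 22.258 kb to 3170.219 kb before the start of Igkc (chr6:70726435-70726966, + strand), with 38 on its strand and 62 on the opposite strand. Their names sort them into 20 families, given by the number before the hyphen. The genes resemble each other closely: the closest relative of a gene had a median identity of 94.9% over its transcript, and 19 genes had a near-identical relative (at least 97% identity over at least 80% of the transcript). How reads that fit several genes were counted is not given in the sources used here, so values of those 19 genes are uncertain. A pair of genes in that class, Igkv1-117 and Igkv1-110, share 97.5% of 401 aligned bases, and the others named below are Igkv3-5, Igkv3-10, Igkv4-53, Igkv4-59, Igkv4-70, Igkv8-18, Igkv8-19, Igkv8-28, Igkv17-121 and Igkv17-127. No member overlaps a gene on the other strand.

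The 3' end of a V segment runs from the codon of the conserved second cysteine into the third complementarity-determining region (CDR3), where the junction to J is formed. Germline ends are given here for some of the genes that took an unusually high share in single or several spleens, or were the most used gene of a spleen. They read 5' to 3' on the coding strand from the GENCODE M21 transcripts, with capitals from the cysteine codon to the end of the segment.
Igkv1-117: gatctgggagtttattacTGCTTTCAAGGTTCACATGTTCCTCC
Igkv1-135: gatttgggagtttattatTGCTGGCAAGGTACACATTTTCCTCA
Igkv5-39: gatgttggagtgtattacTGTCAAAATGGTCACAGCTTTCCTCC
Igkv9-120: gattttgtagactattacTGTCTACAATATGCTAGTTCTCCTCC
Igkv3-4: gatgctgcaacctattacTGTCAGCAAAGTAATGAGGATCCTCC
Igkv4-53: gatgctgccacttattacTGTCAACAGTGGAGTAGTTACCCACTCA
Igkv17-121: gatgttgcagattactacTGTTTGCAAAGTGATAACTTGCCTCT
Igkv6-23: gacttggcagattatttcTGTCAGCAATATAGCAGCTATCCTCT
Igkv3-7: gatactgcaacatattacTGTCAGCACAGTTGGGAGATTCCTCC
Igkv3-10: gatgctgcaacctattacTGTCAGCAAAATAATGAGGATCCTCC
Igkv4-63: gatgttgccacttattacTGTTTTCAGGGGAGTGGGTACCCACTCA

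The ends of genes whose shares did not overlap between the genotypes, though none passed the adjusted test, read as follows, with Igkv4-59 for comparison.
Igkv8-27: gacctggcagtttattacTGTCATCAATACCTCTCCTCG
Igkv8-28: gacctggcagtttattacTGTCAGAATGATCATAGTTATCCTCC
Igkv4-72: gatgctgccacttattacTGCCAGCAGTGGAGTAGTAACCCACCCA
Igkv4-59: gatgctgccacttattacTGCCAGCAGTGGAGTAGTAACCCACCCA

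The capitals of Igkv4-72 and Igkv4-59 are identical over all 28 bases, and those of Igkv4-68 and Igkv4-71 are the same. Among the 97 genes in which the cysteine motif was found, there were 86 distinct ends, and 20 genes shared theirs with another gene. From the cysteine codon on, 65 genes had 26 bases left, which together held 78.1% of usage, and 20 genes had 28 bases, which held 14.9%. The exceptions include Igkv8-27, which ends after 21 bases.

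For the pair of genes whose levels did not overlap between the genotypes, the whole second coding exon is printed with the same use of capitals. This exon encodes the end of the leader and most of the variable domain. It lies at chr6:70457501-70457798 on the - strand for Igkv6-13 and at chr6:67896345-67896642 on the + strand for Igkv14-126 (GRCm38), each 298 bases long.
Igkv6-13: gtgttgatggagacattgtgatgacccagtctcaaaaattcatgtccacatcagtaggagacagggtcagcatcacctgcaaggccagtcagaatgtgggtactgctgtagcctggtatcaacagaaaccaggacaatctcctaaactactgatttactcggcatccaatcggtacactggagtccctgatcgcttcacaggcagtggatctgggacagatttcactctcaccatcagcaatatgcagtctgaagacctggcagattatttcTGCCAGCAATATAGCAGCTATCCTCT
Igkv14-126: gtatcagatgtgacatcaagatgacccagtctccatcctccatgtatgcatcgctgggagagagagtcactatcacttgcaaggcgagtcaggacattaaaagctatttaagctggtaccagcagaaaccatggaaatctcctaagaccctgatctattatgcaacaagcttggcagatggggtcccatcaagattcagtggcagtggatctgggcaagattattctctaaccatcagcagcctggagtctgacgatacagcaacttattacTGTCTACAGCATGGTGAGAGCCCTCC

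The closest relative of Igkv6-13 was Igkv6-23, with 93.9% identity over 359 bases, and their capitals differ at 1 of 26 bases. That of Igkv14-126 was Igkv14-111, with 91.6% identity over 358 bases. Neither gene was in the near-identical class.

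Libraries held 14990474 to 19822673 reads in genes, of which 24688 to 54776 fell in the 100 genes, between 0.144% and 0.335% of a library. Levels are given in FPKM, counts scaled to the length of the gene and the size of the library, and usage is a gene's percent of the summed FPKM of the 100 genes in the same spleen. Dusp6 was at 0.308 to 0.624 FPKM in the KO libraries and 16.6 to 24.0 FPKM in the WT libraries, as labelled. Library WT 67 stood apart: exocrine pancreas genes, from tissue that adjoins the spleen, summed to 15810 FPKM there, to 200 FPKM in WT 65, and to between 9.55 and 26.2 FPKM in the other 8. Usage is a share within the kappa genes and does not include the pancreas genes, and values without WT 67 are given beside the kappa sum and the counts of genes.

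Every one of the 100 genes had at least 1 read in the 10 libraries together, and 89 had reads in every library. A mean of at least 0.1 FPKM was reached by 98 genes, which entered the tests. The other two, Igkv1-35 and Igkv1-131, had 3 and 2 reads over all libraries. A mean of at least 1 FPKM was reached by 93 genes.

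Summed over the 100 genes, kappa V RNA was lower on average in KO spleens than in WT spleens, but the groups overlapped widely. The sum was 4935, 5520, 6290, 3529 and 4647 FPKM in KO 26, 21, 73, 01 and 03, and 3889, 4301, 8601, 7754 and 6300 FPKM in WT 65, 67, 73, 77 and 83. KO 01 was the lowest library and WT 73 the highest, and 4 of the 5 KO libraries lay above WT 65 and WT 67. Group means were 4984 ± 1028 FPKM for KO and 6169 ± 2070 FPKM for WT (SD, n = 5). The ratio of KO to WT was 0.808, and the difference of mean log2 sums was -0.26. That difference was -0.38 without WT 67 and -0.41 without WT 65, and it was -0.13 without WT 73, -0.15 without KO 01 and -0.16 without WT 77. Igkc, the kappa constant gene, stood in nearly the same ratio, 0.822, at 9345 ± 2009 FPKM for KO and 11364 ± 2810 FPKM for WT (SD, n = 5). The summed V level per Igkc was 0.537 ± 0.0503 in KO and 0.535 ± 0.0743 in WT (SD, n = 5), a difference of mean log2 values of 0.01, which is no longer below 0. No test was made on sums over the genes.

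**Figure D1:**
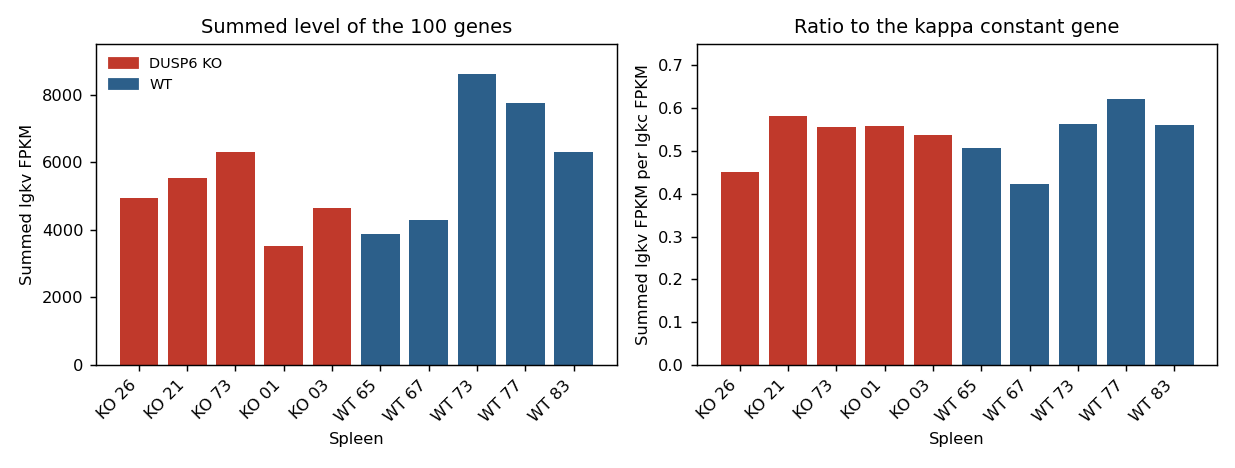
Bars from 0 for each spleen (horizontal axis; red, DUSP6 KO; blue, WT). Left, summed FPKM of the 100 kappa V genes, 3529 to 8601; right, the same sum divided by the FPKM of Igkc, 0.423 to 0.620, in which the groups cover nearly the same range.

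B cell marker genes (Ms4a1, Cd79a, Cd79b, Cd22, Fcer2a and Cr2) did not follow the kappa sum from library to library. Their sum was 1074, 1120, 605, 872 and 1180 FPKM in KO 26, 21, 73, 01 and 03, and 1135, 1534, 1051, 675 and 1161 FPKM in WT 65, 67, 73, 77 and 83. KO 73 and WT 77, which were lowest in their group for B cell genes, were the first and the second highest of their group for kappa V RNA. The sum of 9 plasma cell genes, among them Jchain, Xbp1 and Mzb1, was 758, 760, 751, 506 and 690 FPKM in KO 26, 21, 73, 01 and 03, and 485, 659, 983, 797 and 809 FPKM in WT 65, 67, 73, 77 and 83. KO 01 was lowest among KO and WT 73 highest among WT in both the plasma cell sum and the kappa sum. Erythroid genes, which take much of spleen RNA, ranged from 20327 to 105483 FPKM in KO, highest in KO 73, and from 24377 to 49893 FPKM in WT. The part of these cell types in the kappa sums was not tested.

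A small number of genes supplied a large part of the kappa V RNA, and the order of mean usage was alike in both genotypes (Spearman's rho 0.94 across the 100 genes, given as a description). Mean usage was at least 1% for 39 genes and at least 0.5% for 51 genes. The 12 most used genes held 40.7% of usage on average, 40.1 ± 3.83% in KO and 41.4 ± 3.41% in WT (SD, n = 5). In order, they were Igkv1-117, Igkv1-135, Igkv10-96, Igkv5-39, Igkv9-120, Igkv4-59, Igkv14-111, Igkv3-4, Igkv4-53, Igkv15-103, Igkv6-23 and Igkv6-15, and they came from 9 families.

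Igkv1-117 (chr6:68121046-68121827, + strand) led, at 8.93, 7.90, 8.30, 6.76 and 9.38% in KO 26, 21, 73, 01 and 03, and 6.47, 6.54, 5.13, 2.78 and 10.5% in WT 65, 67, 73, 77 and 83. It was the most used gene in 6 of 10 spleens. The means were 8.25 ± 1.01% in KO and 6.29 ± 2.82% in WT (SD, n = 5), and the exact permutation test of usage gave p = 0.143. Igkv10-96 kept between 2.84 and 5.48% in every spleen. None of these 12 genes had separated groups in level. Their lowest adjusted p-value was 0.944 for level and 0.839 for usage (limma, Benjamini-Hochberg over all 21296 genes tested).

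**Figure D2:**
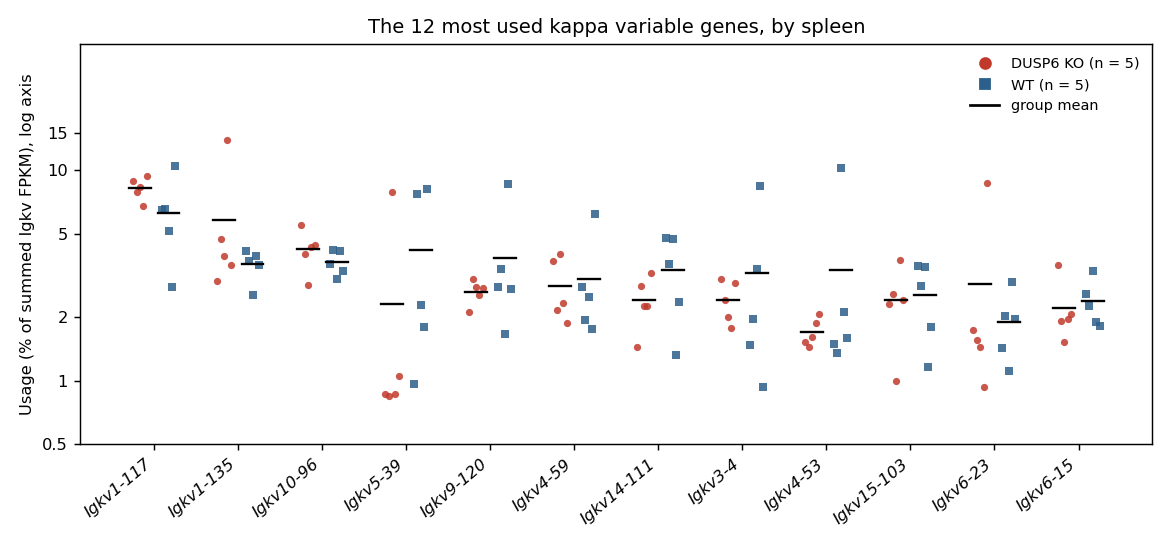
Usage of the 12 most used kappa V genes (percent of the summed kappa V FPKM, log axis), with a point for each spleen (red circles, DUSP6 KO; blue squares, WT; 5 each) and a black line at the group mean. KO and WT points overlap for each gene, and single points stand far above the rest, such as Igkv1-135 at 14.0% in KO 01 and Igkv4-53 at 10.3% in WT 73.

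Single genes stood high in single spleens of either genotype. Taking the 51 genes with a mean usage of at least 0.5%, 18 exceeded 3 times their own median over the 10 spleens in at least 1 spleen, 22 times in all. The mean includes the high spleens, so a high value can help its own gene reach 0.5%, and these numbers depend in part on that minimum. Of these 22 cases, 10 were in KO and 12 in WT spleens, and for 15 of the 18 genes the case was a single spleen. WT 65 had no such gene, and KO 73, WT 73 and WT 77 had 4 each.

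Igkv1-135 took 14.0% in KO 01, the highest share of any gene in any spleen, and 2.56 to 4.71% in the other 9. That share rested on 4224 of 28537 kappa V reads (14.8% of reads, 95% Wilson interval 14.4 to 15.2%, which covers counting error only). Igkv4-53 took 10.3% in WT 73 and 1.36 to 2.12% elsewhere. Each of these genes was the most used gene of that spleen. Igkv9-120, at 8.59%, and Igkv3-4, at 8.47%, led WT 77 together, against medians of 2.77 and 2.21%. Igkv6-23 took 8.74% in KO 03 against a median of 1.64%.

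Igkv5-39 was high in several spleens. Its usage was 0.861, 0.843, 7.90, 0.867 and 1.05% in KO 26, 21, 73, 01 and 03, and 0.958, 7.75, 2.29, 1.80 and 8.13% in WT 65, 67, 73, 77 and 83. The 3 high spleens, KO 73, WT 67 and WT 83, lay close together and included both genotypes. In WT 67 it was the most used gene.

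Igkv17-121 took 9.12% in WT 83 and 0.618 to 1.78% in the other 9 spleens. Its near-identical relative Igkv17-127, with 97.5% identity, was at 1.83% in WT 83 and 1.47 to 2.41% elsewhere. The high value of WT 83 was thus seen in the counts of only 1 of the 2 genes. Igkv3-7 took 4.66% in KO 73 against a median of 0.578%, a ratio of 8.06. Igkv4-63 took 2.58% in WT 73 and 1.95% in KO 73 against a median of 0.313%, and its ratio of 8.24 in WT 73 was the largest among the 51 genes. Its mean usage, 0.694%, includes these high spleens. Rarer genes had larger ratios over medians near 0, such as Igkv4-71, at 0.703% in WT 77 against a median of 0.00497%. Its closest relative Igkv4-68, with 95.7% identity, was also highest in WT 77, at 2.55%. Whether reads were shared between Igkv4-71 and Igkv4-68 was not tested. Igkv3-10, and Igkv3-5 with which it shares 98.3% identity, were both highest in KO 21, at 3.28 and 3.58%.

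**Figure D3:**
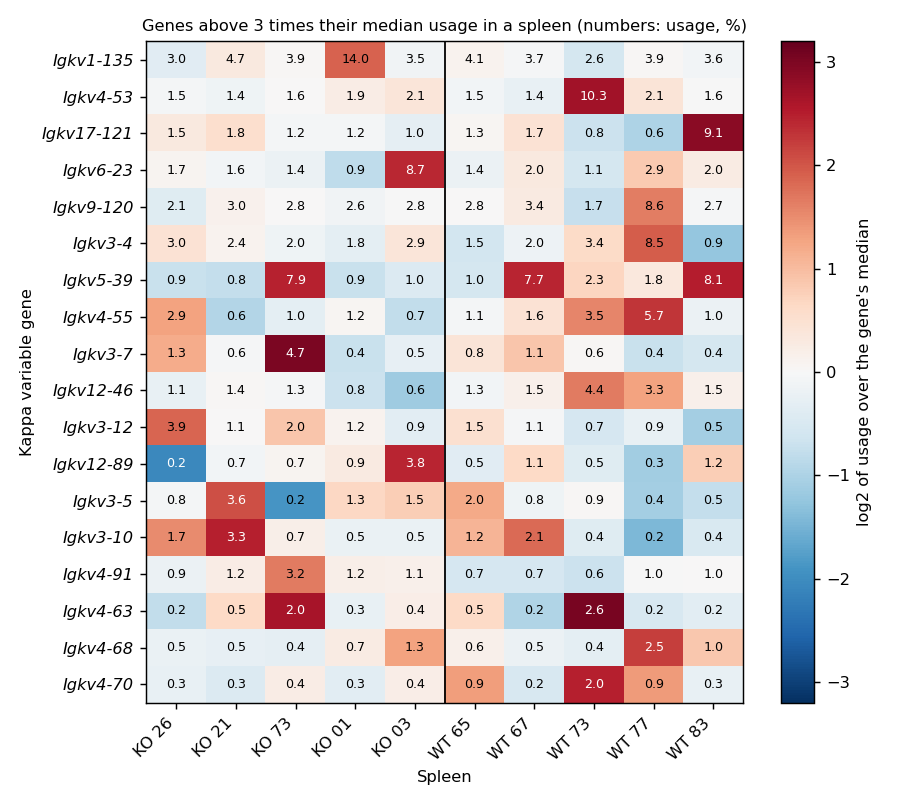
The 18 kappa V genes (rows) that exceeded 3 times their own median usage in at least 1 spleen (columns; 5 DUSP6 KO left of the line, 5 WT right of it), among genes with a mean usage of at least 0.5%. Cells give usage in percent, and colour gives the log2 ratio to the gene's median (red above, blue below); most rows hold a single dark red cell, and Igkv5-39 holds 3 near 8%.

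Over all 100 genes, those above included, the usage order was similar in all spleens. Spearman's rho between a pair of spleens was 0.823 to 0.925 within KO, 0.825 to 0.927 within WT and 0.795 to 0.919 between the genotypes, with medians of 0.878, 0.862 and 0.863. These correlations are across genes, which are not independent replicates, and describe the libraries without a test. The effective number of genes (the exponential of the Shannon entropy of usage, which equals the number of genes if all were used equally) was 52.4, 54.1, 48.8, 46.5 and 48.3 in KO 26, 21, 73, 01 and 03, and 54.9, 52.6, 47.3, 44.8 and 43.5 in WT 65, 67, 73, 77 and 83. WT spleens held both the highest and the lowest value, with means of 50.01 ± 3.13 in KO and 48.6 ± 4.91 in WT (SD, n = 5). The difference of the means, 1.39, was 2.38 without WT 67 and ranged from 0.117 without WT 83 to 2.95 without WT 65. The 10 most used genes of a spleen held 37.6 to 44.5% in KO and 37.6 to 49.8% in WT.

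In log2 FPKM, the spread within a genotype was large for these genes: the median within-group SD was 0.80 over the 98 tested genes, against 0.35 over all genes tested. With a mean of at least 10 FPKM it was 0.73 for 72 kappa V genes, 0.74 for 75 heavy chain V genes and 0.19 for all 5175 such genes.

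Usage was spread over the whole locus. The 29 genes over 2 Mb from Igkc held 40.6 ± 4.48% in KO and 39.1 ± 5.21% in WT, the 31 genes between 1 and 2 Mb held 20.7 ± 2.40 and 23.4 ± 5.25%, and the 40 genes under 1 Mb held 38.7 ± 3.59 and 37.5 ± 4.08% (SD, n = 5). Spearman's rho between mean usage and distance over the 100 genes was -0.016. Genes on the strand of Igkc, which join by deletion, held 47.5 ± 3.25% in KO and 45.1 ± 3.51% in WT, and the 62 genes on the opposite strand, which join by inversion, held 52.5 ± 3.25 and 54.9 ± 3.51% (SD, n = 5). WT 73, with 60.9% on the opposite strand, was the extreme, and it is the spleen in which Igkv4-53, on that strand, took 10.3%.

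**Figure D4:**
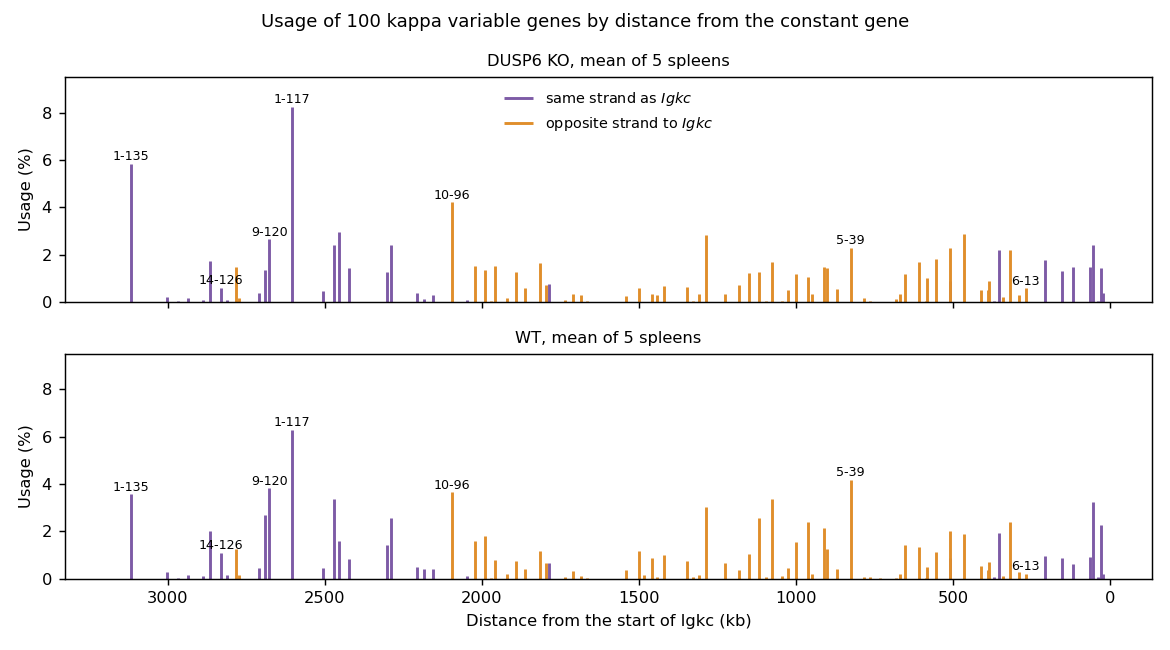
Mean usage (percent, vertical lines) of each of the 100 kappa V genes by its distance in kb from the start of Igkc, at the right end of the axis, for DUSP6 KO (top) and WT (bottom); colour gives the strand relative to Igkc. High lines stand at both ends and in the middle of the locus, and many of the same positions carry them in both panels. Some heights differ, such as Igkv5-39 at 2.30% in KO and 4.18% in WT, and Igkv1-135 at 5.84% in KO and 3.58% in WT.

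By family, Igkv4 with 26 genes and Igkv1 with 10 genes held most. The Igkv4 family took 14.0 to 19.8% in KO and 13.5 to 27.6% in WT, where WT 73 was highest. For Igkv1 the values were 16.6, 16.0, 16.9, 25.3 and 17.0% in KO 26, 21, 73, 01 and 03, and 14.0, 13.7, 10.7, 9.58 and 17.2% in WT 65, 67, 73, 77 and 83. The 5 KO spleens lay at 16.0% or more and 4 of the 5 WT spleens at 14.0% or less, with WT 83 above all KO spleens but KO 01. Igkv8, with 10 genes, took 6.97 to 9.73% in KO and 4.56 to 7.38% in WT, where KO 73 was below WT 77 and WT 83.

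Between the genotypes, no kappa V gene differed in level at an adjusted p-value of 0.05 or less (limma on log2(FPKM + 0.1), adjusted over 21296 genes), where 0.0704% of all genes tested did. At an unadjusted p-value under 0.05, 7 genes were higher in KO (7.14%, against 2.62% of all genes tested) and 6 were lower (6.12%, against 3.03%). Groups without overlap occurred for 2 of the 98 genes, against 1.11% of all genes tested. The median log2 difference of the 98 genes was -0.25, with 36 above and 62 below 0, while the median of all genes tested was -0.005. The recovered reads tested with limma voom also gave no kappa V gene at an adjusted p-value of 0.05 or less, with 0.0704% of all genes called. Without WT 67, the library with pancreas RNA, 4 of the 98 genes were higher at an unadjusted p-value under 0.05, against 2.64% of all genes tested in that fit, and 10 were lower, against 2.63%.

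The genes without overlap in level were Igkv6-13 and Igkv14-126. Igkv6-13 (chr6:70457501-70458036, - strand, 268 kb from Igkc) was at 22.4, 32.7, 46.4, 20.7 and 23.2 FPKM in KO 26, 21, 73, 01 and 03, and 8.96, 11.4, 10.2, 10.6 and 16.8 FPKM in WT 65, 67, 73, 77 and 83. The lowest KO spleen was above the highest WT spleen, WT 83. The KO mean was 2.51 times the WT mean, and the log2 difference was 1.29 (SE 0.24, limma adjusted p = 0.193). Since groups of 5 without overlap fix the two-sided exact permutation p-value at 0.00794, the smallest possible, that value adds nothing for genes picked by it. The gene was a minor member, with 55 to 244 reads a library.

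Igkv14-126 (chr6:67896172-67896642, + strand, 2830 kb from Igkc) was at 29.0, 40.5, 23.8, 23.7 and 31.7 FPKM in KO 26, 21, 73, 01 and 03, and 58.6, 65.5, 83.4, 49.4 and 56.9 FPKM in WT 65, 67, 73, 77 and 83. All KO spleens lay below all WT spleens. The KO mean was 0.474 of the WT mean, and the log2 difference was -1.08 (SE 0.17, limma adjusted p = 0.0824). Without KO 21, the highest KO library, the adjusted p-value was 0.0206, the lowest of 18 alternatives. Over all of them it ranged from 0.0206 to 0.212, and 17 gave no call, as in the main fit. The paper, which tested read counts with a different method, lists Igkv14-126 among its most significantly lowered genes in KO spleens. In that test the gene's adjusted p-value was far below the threshold, by orders of magnitude, and its log2 fold change was close to the difference found here. The 2 tests thus differed in the p-value and hardly in the size of the difference. That test also called far more genes in these spleens. In the main fit for level, 15 of the 21296 genes tested had an adjusted p-value of 0.05 or less. The paper's test used these same spleens and was not repeated here, so why the calls differ was not tested. As a share of kappa V RNA the gene took 0.589, 0.734, 0.379, 0.672 and 0.681% in KO 26, 21, 73, 01 and 03, and 1.51, 1.52, 0.970, 0.637 and 0.903% in WT 65, 67, 73, 77 and 83. In usage the groups overlapped, since WT 77 lay among the KO spleens, and the log2 difference was -0.82 (SE 0.29, limma adjusted p = 0.839, exact permutation p = 0.0317). That permutation p-value is unadjusted. The gene was named with earlier results of these same spleens known, so the value is no independent support. Its relative Igkv14-111 was more used than Igkv14-126 in every spleen and overlapped between the groups, at 2.41 ± 0.687% in KO and 3.35 ± 1.51% in WT (SD, n = 5).

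For usage, each library was scaled to the same kappa V sum and all genes were fitted again. This scaling moved the median log2 difference of all genes tested to 0.24 and that of the kappa V genes to 0.01. No kappa V gene passed an adjusted p-value of 0.05 (0.0845% of all genes tested did), 13 were higher in KO at an unadjusted p-value under 0.05 (13.3%, against 2.65%) and 5 were lower (5.1%, against 0.902%). Groups without overlap occurred for 4 genes, against 0.606% of all genes tested. With limma voom on the recovered reads, 1 kappa V gene, Igkv6-13, passed at an adjusted p-value of 0.05 or less, against 0.296% of all genes tested. The kappa sum by which all genes were scaled varies between libraries, so that the scaled values of other genes carry that variation too. Shares within a spleen depend on each other: where some kappa V genes take high shares, the shares of the others are lower.

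Igkv6-13 took 0.454, 0.592, 0.738, 0.587 and 0.499% of kappa V RNA in KO 26, 21, 73, 01 and 03, and 0.230, 0.265, 0.118, 0.136 and 0.266% in WT 65, 67, 73, 77 and 83. No WT spleen reached the lowest KO spleen, KO 26. The log2 difference in usage was 1.55 (SE 0.29, limma adjusted p = 0.0614). Its adjusted p-value was 0.0125 with voom, 0.0109 when a minimum mean of 1 FPKM was set, 0.0254 with a robust trend, 0.0323 after scaling to Igkc in place of the kappa V sum, and 0.0418 without WT 67. Over all 17 alternatives it ranged from 0.0109 to 0.148. The lowest KO share rested on 150 of 34102 kappa V reads (95% Wilson interval 0.375 to 0.516%), and the highest WT share on 108 of 41743 (0.214 to 0.312%). Igkv6-15 and Igkv6-23, of the same family, overlapped between the groups, with exact permutation p-values for usage of 0.571 and 0.857.

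The other genes without overlap in usage were Igkv8-27, Igkv8-28 and Igkv4-72. Igkv8-27 took 1.57, 2.68, 1.54, 1.68 and 1.64% in KO 26, 21, 73, 01 and 03, and 1.40, 1.303, 0.833, 0.985 and 1.13% in WT 65, 67, 73, 77 and 83. KO 21 stood high and the 4 others were close together, above all WT spleens. The log2 difference was 0.68 (SE 0.26, limma adjusted p = 0.839). Igkv8-28, which lies next to it by number, took 0.766, 0.700, 1.63, 0.969 and 0.936% in KO 26, 21, 73, 01 and 03, and 0.667, 0.609, 0.357, 0.302 and 0.634% in WT 65, 67, 73, 77 and 83. The gap between KO 21 and WT 65 was small, and the log2 difference was 0.96 (SE 0.31, limma adjusted p = 0.809). Igkv8-27 and Igkv8-28 both had their lowest shares in WT 73 and WT 77, the spleens with the highest kappa V sums. The part of those sums in the separation was not tested. Reads of Igkv8-28 could belong to Igkv8-19, with 97.6% identity, which overlapped between the groups at 0.496 to 1.22% in KO and 0.419 to 0.915% in WT.

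Igkv4-72 took 0.700, 0.568, 0.775, 0.377 and 0.490% in KO 26, 21, 73, 01 and 03, and 0.849, 1.81, 0.953, 1.55 and 0.804% in WT 65, 67, 73, 77 and 83. KO 73 and WT 83 nearly met. The log2 difference was -0.996 (SE 0.30, limma adjusted p = 0.7505). In level, Igkv8-27, Igkv8-28 and Igkv4-72 overlapped between the groups, with log2 differences of 0.42, 0.70 and -1.26. None of the 3 passed the limma test of usage after adjustment, and they were picked for their separation.

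**Figure D5:**
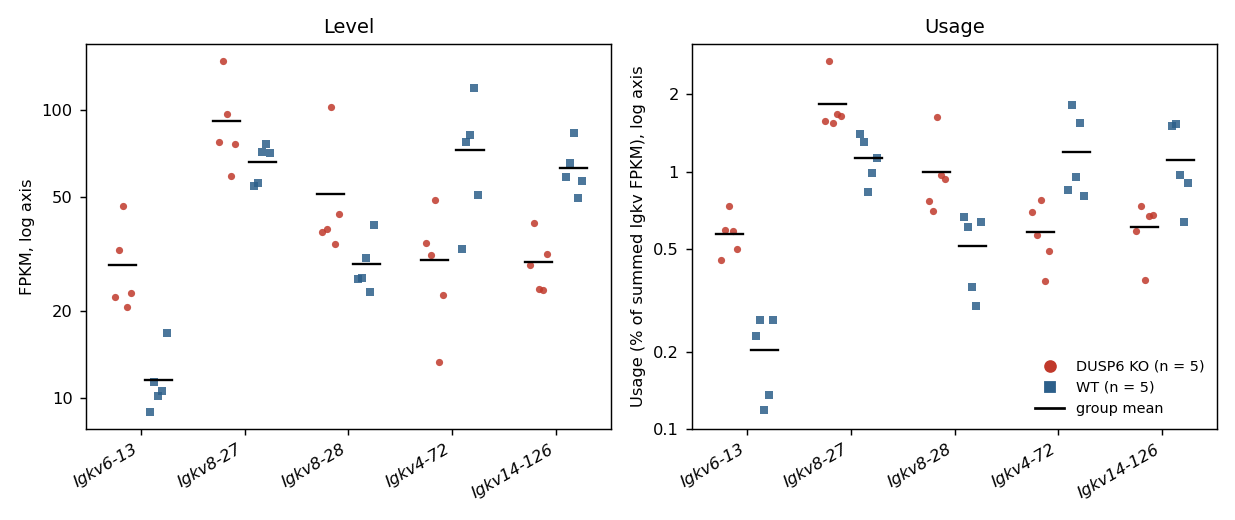
The 5 kappa V genes whose groups did not overlap in level or in usage, as FPKM (left) and as percent of the summed kappa V FPKM (right), both on log axes, with a point for each spleen (red circles, DUSP6 KO; blue squares, WT; 5 each) and a black line at the group mean. Igkv6-13 is separated in both panels, Igkv14-126 on the left only, and Igkv8-27, Igkv8-28 and Igkv4-72 on the right only.

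The remaining kappa V genes with an unadjusted p-value under 0.05 for usage overlapped between the groups. Igkv1-110, the near-identical relative of Igkv1-117, took 2.97 ± 0.471% in KO and 1.598 ± 0.659% in WT (SD, n = 5). Its log2 difference in usage was 0.99 (SE 0.31, limma adjusted p = 0.787), and the lowest KO value, 2.24% in KO 21, was below the 2.30% of WT 65. Higher in KO were also Igkv2-109, Igkv3-1, Igkv4-57-1, Igkv4-61, Igkv4-78, Igkv4-79, Igkv4-91, Igkv7-33 and Igkv8-16, and lower in KO were Igkv4-70, Igkv8-18 and Igkv12-46 beside Igkv4-72 and Igkv14-126. Of these, Igkv4-78 had only 0 to 26 reads a library and Igkv8-18 only 4 to 60. Igkv12-46 was at 0.623 to 1.40% in KO and at 1.29 to 4.36% in WT.

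Of the genes that complete the kappa chain, Igkc and the 5 joining segments Igkj1 to Igkj5 all had lower means in KO, with a median log2 difference of -0.37 (all genes tested, -0.005). At an unadjusted p-value under 0.05, 2 of these 6 genes were lower, against 3.03% of all genes tested. Igkj4 was at 142 ± 31.9 FPKM in KO and 228 ± 58.7 FPKM in WT (SD, n = 5), with a log2 difference of -0.68 (SE 0.20, limma adjusted p = 0.555). The other was Igkj1, at 61.8 ± 24.7 FPKM in KO and 100.1 ± 35.8 FPKM in WT (SD, n = 5), with a log2 difference of -0.69 (SE 0.29, limma adjusted p = 0.834). The J segments are short, and libraries held as few as 30 reads of Igkj1 and 60 of Igkj4.

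Lambda chains, the alternative light chains, showed no such direction, with 3 of 8 genes above 0 and 5 below, a median log2 difference of -0.08 and none at an unadjusted p-value under 0.05. Iglc1, the most abundant lambda constant gene, was at 541 ± 60.7 FPKM in KO and 512 ± 137 FPKM in WT, Iglc2 at 390 ± 136 and 391 ± 37.8 FPKM, and Iglc3 at 186 ± 41.4 and 201 ± 51.7 FPKM (SD, n = 5). The lambda constant genes made up 8.69, 12.04, 7.25, 13.2 and 13.9% of all light chain constant FPKM in KO 26, 21, 73, 01 and 03, and 10.3, 9.68, 7.49, 8.003 and 9.87% in WT 65, 67, 73, 77 and 83. The 3 highest values were KO spleens, and the lowest was a KO spleen too.

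Of 14 genes of the surrogate light chain and of V(D)J recombination, 10 were tested, and 1 was higher in KO at an unadjusted p-value under 0.05, against 2.62% of all genes tested. This was Xrcc5, which encodes the Ku80 DNA end-binding protein, at 12.6 ± 1.44 FPKM in KO and 10.8 ± 0.735 FPKM in WT (SD, n = 5; log2 difference 0.21, SE 0.09, limma adjusted p = 0.863). Rag1, which cuts at the V and J segments, was at 0.0545 to 0.235 FPKM in KO and 0.00910 to 0.0531 FPKM in WT, with 1 to 29 reads a library, and was below the level needed for the test. None of 10 transcription factors that act on light chain genes passed an unadjusted p-value of 0.05.

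Of the 9 plasma cell genes, 2 were lower in KO at an unadjusted p-value under 0.05, against 3.03% of all genes tested: Xbp1, a transcription factor of secretory cells, and Derl3, which serves the degradation of misfolded proteins. Xbp1 was at 47.4 ± 8.24 FPKM in KO and 67.01 ± 10.3 FPKM in WT (SD, n = 5; log2 difference -0.50, SE 0.15, limma adjusted p = 0.555). Jchain, which joins IgA and IgM into polymers, was at 475 ± 89.6 and 484 ± 150 FPKM (log2 difference 0.01, SE 0.24, limma adjusted p = 0.998). All 6 B cell genes had negative log2 differences, with a median of -0.18, and none had an unadjusted p-value under 0.05. No gene of these lists had an adjusted p-value of 0.05 or less.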

How the data were processed

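Spleen RNA of 5 DUSP6 KO and 5 WT mice was sequenced, 1 library per mouse. The authors deposited FPKM values and gene lengths. According to the methods, they aligned paired-end reads with Hisat2 v2.0.5, counted them per gene with featureCounts (1.5.0-p3 in the submitters' processing notes) and computed FPKM from count and length. The notes name hg38, a human build, but all 100 members matched the mouse annotation GENCODE M21 by identifier and coordinates. Whether counting used strand, and how reads with several matches were treated, is not given in the sources used here. The authors tested counts with DESeq2, which was not repeated.

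In each library, FPKM values multiplied by gene length came in whole steps (100% within 0.01 read), which gave the reads used for depth and for limma voom. Levels were tested as log2(FPKM + 0.1) with limma 3.58.1 (R 4.3.3), using eBayes with a mean-variance trend. The 21296 genes whose mean reached 0.1 FPKM were fitted, p-values were adjusted by Benjamini-Hochberg over all of them, and the threshold was 0.05. Fold changes on this scale understate those of low genes. Usage was tested in the same way after scaling libraries to equal summed FPKM of the members. For named members, log2(FPKM + 0.1) and log2(usage percent + 0.01) were each compared with an exact permutation test (two-sided). Sequences came from the longest GENCODE transcript and were aligned with blastn 2.17.0, and scripts were tested on simulated data. Python 3.11.15, scipy 1.17.1 and matplotlib 3.10.9 served for the other values and the plots.

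The members and the gene lists were chosen with earlier results of these data known, and 1 gene of the B cell list is not reported here. Members were named by rule: the 12 most used, those with the largest differences and no overlap in level, those past the threshold in any of the level, usage and voom fits, Igkv14-126, and the 6 with the highest ratio of top spleen to median at a mean usage of at least 0.5%. Genes named otherwise (Igkv8-27, Igkv8-28, Igkv4-72 and the rest of those at an unadjusted p-value under 0.05) were chosen after their values were seen. Alternatives were pseudocounts of 1 and 0.01, a minimum of 1 FPKM, no minimum, a robust trend, voom, quantile normalization, median centring, scaling to Igkc, leaving out each library, and leaving out members with a near-identical relative. Labels do not say whether any mice were littermates or how libraries were batched. By the methods, DUSP6 KO and C57BL/6J mice were purchased as separate strains, and no littermate controls are described. Other differences between the strains cannot be told apart from the Dusp6 genotype here.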

Additional observations from a re-analysis of the deposited data

Results flagged for a closer look

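In 14 of the 56 groups of 5 spleens examined, a single spleen lay far from the other 4 of its genotype (a gap of more than 0.71 of the whole range), where chance gives about 1 in 20. The count cannot be set against that rate, since the genes share libraries, Igkv4-63, Igkv3-7, Igkv17-121, Igkv4-53 and Igkv5-39 were picked for a high ratio of top spleen to median, and Igkv8-27 and Igkv8-28 were added after their values were seen. For usage in KO spleens, they were Igkv1-135 at 14.0% in KO 01 (others 2.98 to 4.71%), Igkv5-39 at 7.90% in KO 73 (0.843 to 1.05%), Igkv6-23 at 8.74% in KO 03 (0.932 to 1.73%), Igkv6-15 at 3.56% in KO 26 (1.52 to 2.07%), Igkv4-63 at 1.95% in KO 73 (0.182 to 0.490%), Igkv3-7 at 4.66% in KO 73 (0.353 to 1.32%), Igkv8-27 at 2.68% in KO 21 (1.54 to 1.68%) and Igkv8-28 at 1.63% in KO 73 (0.700 to 0.969%). In WT spleens they were Igkv9-120 at 8.59% in WT 77 (1.67 to 3.40%), Igkv4-59 at 6.19% in WT 83 (1.76 to 2.78%), Igkv4-53 at 10.3% in WT 73 (1.36 to 2.12%), Igkv4-63 at 2.58% in WT 73 (0.159 to 0.487%) and Igkv17-121 at 9.12% in WT 83 (0.618 to 1.71%).

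KO 73 accounted for 4 of these, and it was also the spleen with the highest erythroid sum (105483 FPKM) and the lowest B cell sum (605 FPKM) of the 10. WT 67 held 18422147 reads against 15611652 to 16348136 in the other WT libraries. The part of these library properties in the usage values was not tested.

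The 60 kappa V pseudogenes, which were outside the comparison, were not silent: their summed level had a median of 19.8 FPKM over the 10 libraries (10.8 to 30.5 FPKM), from 56 to 169 reads a library. Igkv4-77 and Igkv2-107 were the highest, and Igkv4-56 was at 13.8 FPKM in KO 03 against a median of 0.421 FPKM.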

How the results depend on the processing

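Of the 850 values recomputed under alternatives, 831 kept their side of the threshold or, where no test was made, moved by less than the spread between replicates (counts, within 1.5 times), and no tested difference reversed. The summed kappa level, which was not tested, turned from a mean log2 difference of -0.26 to 0.01 when divided by Igkc, and was -0.41 to -0.13 when each library was left out. No kappa V gene passed the adjusted threshold for level in any alternative except without KO 21, where Igkv14-126 did (range 0 to 1 when each library was left out). For level at an unadjusted p-value under 0.05, leaving out each library in turn gave 2 to 8 genes higher and 4 to 10 lower in KO. For usage, 1 gene, Igkv6-13, passed with a minimum of 1 FPKM, with a robust trend, with voom, after scaling to Igkc and without WT 67 (range 0 to 1 when each library was left out), and 9 genes were lower at an unadjusted p-value under 0.05 with a minimum of 1 FPKM and 9 with voom. In the fit for level Igkv6-13 kept a log2 difference of 1.10 to 1.43, and in that for usage 1.38 to 1.67. Leaving out members with a near-identical relative gave 5 higher and 5 lower for level. Apart from level without WT 67, the shares of all genes tested at an unadjusted p-value under 0.05 in the alternative fits are not given here. The counts of kappa V genes in those fits therefore cannot be set against a general rate. The median centring and quantile alternatives changed no call. No paired analysis was possible because the groups share only 1 replicate number, which is an animal number. With 55 to 244 reads a library for Igkv6-13, counting error alone limits its shares to the intervals given.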
